A study of Mus musculus with 3 samples.

Results

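The Schlafen genes of the mouse were followed in tibialis anterior muscle that was regenerating 4 days after an injection of barium chloride. The members are Slfn1, Slfn2, Slfn3, Slfn4, Slfn5, Slfn8 and Slfn9. They were chosen by symbol, and the family was taken up because Slfn4 had one of the highest ratios of old rMETRNL to old PBS in macrophages. They make up 7 of the 32285 features in the files, and each symbol belonged to 1 feature. Single cells were sequenced from young mice given PBS (young PBS), old mice given PBS (old PBS) and old mice given recombinant meteorin-like protein (old rMETRNL), all after the same injury. The study's methods name C57/BL6J mice and state that triplicate muscles of a group were pooled, so that each group is 1 library and no spread between mice can be measured. No test between groups was therefore possible, and every interval given here is an exact 95% interval that covers counting error only.

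Schlafen proteins are known mostly from immune cells, and many of their genes are induced by type I interferon. The short members Slfn1 and Slfn2 have been tied to growth arrest and quiescence of T cells. The intermediate members are Slfn3 and Slfn4, of which Slfn4 is a gene of monocytes and other young myeloid cells that is turned on by interferon and bacterial products. The long members Slfn5, Slfn8 and Slfn9 carry in addition a helicase-like region. In injured muscle, blood monocytes enter the tissue, pass through an inflammatory state and become macrophages that clear debris, so that interferon and monocyte genes are read in the same cells as the Schlafen genes.

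The 7 genes lie together on chromosome 11 between 82951349 and 83215154 (GRCm38, GENCODE), a span of 263806 bases, in the order Slfn5, Slfn9, Slfn8, Slfn2, Slfn1, Slfn4 and Slfn3. Slfn8 and Slfn9 are on the minus strand and the other 5 are on the plus strand. The 250 bases before the RefSeq start of Slfn1 and Slfn4 are printed because these genes differed most between libraries in the cells described next. They lie at chr11:83116570-83116819 and chr11:83174936-83175185 on the plus strand of GRCm38.p6. Capitals mark the longest run of letters that both windows hold.
Slfn1: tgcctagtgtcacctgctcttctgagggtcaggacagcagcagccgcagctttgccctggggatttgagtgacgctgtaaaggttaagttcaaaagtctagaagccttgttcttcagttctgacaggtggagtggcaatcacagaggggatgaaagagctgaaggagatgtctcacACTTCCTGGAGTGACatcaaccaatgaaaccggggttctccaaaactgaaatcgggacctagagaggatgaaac
Slfn4: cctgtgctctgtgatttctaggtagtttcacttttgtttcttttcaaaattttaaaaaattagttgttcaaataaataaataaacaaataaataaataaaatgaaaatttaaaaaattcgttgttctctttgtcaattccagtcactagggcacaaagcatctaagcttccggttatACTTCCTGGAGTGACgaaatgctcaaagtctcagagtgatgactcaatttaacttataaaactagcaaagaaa
The shared run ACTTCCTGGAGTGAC has 15 bases and begins 74 bases before the start of Slfn1 and 73 bases before that of Slfn4. On either strand it occurred in 2 of the 32851 RefSeq promoters, which are those of Slfn1 and Slfn4. Its first 9 bases, ACTTCCTGG, occurred in promoters of 4 members (Slfn1, Slfn2, Slfn3 and Slfn4) and in 0.843% of all promoters. The run was looked for after the values of the genes were known and is a description of the letters.

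The core of the interferon response element, GAAANNGAA read on both strands, was found in promoters of 3 of the 7 members (Slfn5, Slfn8 and Slfn9) and in 8.56% of all RefSeq promoters of 300 bases. Stretches of 25 bases around it are shown because they separate the long members from the others, with the core in capitals. They begin at chr11:82951939-82951963 and chr11:82951962-82951986 for Slfn5 (plus strand), and lie at chr11:83020841-83020865 for Slfn8 and chr11:82991858-82991882 for Slfn9 (minus strand, printed as read on it).
Slfn5, first: ttcaaagtGAAAAAGAAaaaaaaaa
Slfn5, second: aaaagctcTTCTCTTTCttaaagtt
Slfn8: tgagcagtTTCGTTTTCcccaaaag
Slfn9: cgagcagtTTCGTTTTCccaaaaac
The cores of Slfn5 begin 155 and 132 bases before its start, and that of Slfn9 begins 44 bases before. The core of Slfn8 begins 47 or 135 bases before, depending on which of its listed starts is used. The Slfn8 and Slfn9 stretches were identical in 22 of 25 positions. Neither TTCNNNGAA, the gamma-activated site, nor GAGGAAGT, a word bound by PU.1, was found in a promoter of the 7 members, while 8.30% and 3.20% of all promoters held them. No match says only that these letters are not in this window.

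The libraries held 12168 (young PBS), 12568 (old PBS) and 14012 (old rMETRNL) barcodes with 179295668 to 228966697 UMIs, of which 9946 to 11353 cells were kept with a median of 13676 to 15092 UMIs. Pairs of libraries shared 58 to 80 barcodes. Cells were named from marker genes after clustering without the Schlafen genes, and 8 classes held at least 50 cells in every library. In macrophage/monocyte-like cells (6001, 5609 and 6507 cells in the order above) the median depth was 14240, 14971 and 14600 UMIs. Mitochondrial UMIs made up 2.91%, 3.43% and 2.95% of that class. Levels are UMI counts on a per-million scale within a class (CPM), which sets every class of every library to the same total. It is not divided by transcript length, and the shares of the family's UMIs that follow count UMIs and do not rank the genes by expression. Sets of 3 values follow the order young PBS, old PBS, old rMETRNL.

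The family had 505101 UMIs in the 31592 kept cells. Slfn2 made up 58.2% of them, Slfn5 28.2%, Slfn8 5.85%, Slfn1 3.18%, Slfn9 3.11%, Slfn4 1.03% and Slfn3 0.367%. Macrophage/monocyte-like cells held 89.4% of the Slfn2 UMIs, 88.8% of those of Slfn1 and 87.1% of those of Slfn4. They held 72.7% for Slfn8, 54.7% for Slfn5, 48.5% for Slfn9 and 43.4% for Slfn3. The last 3 were thus read to a large part outside these cells.

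**Figure D1:**
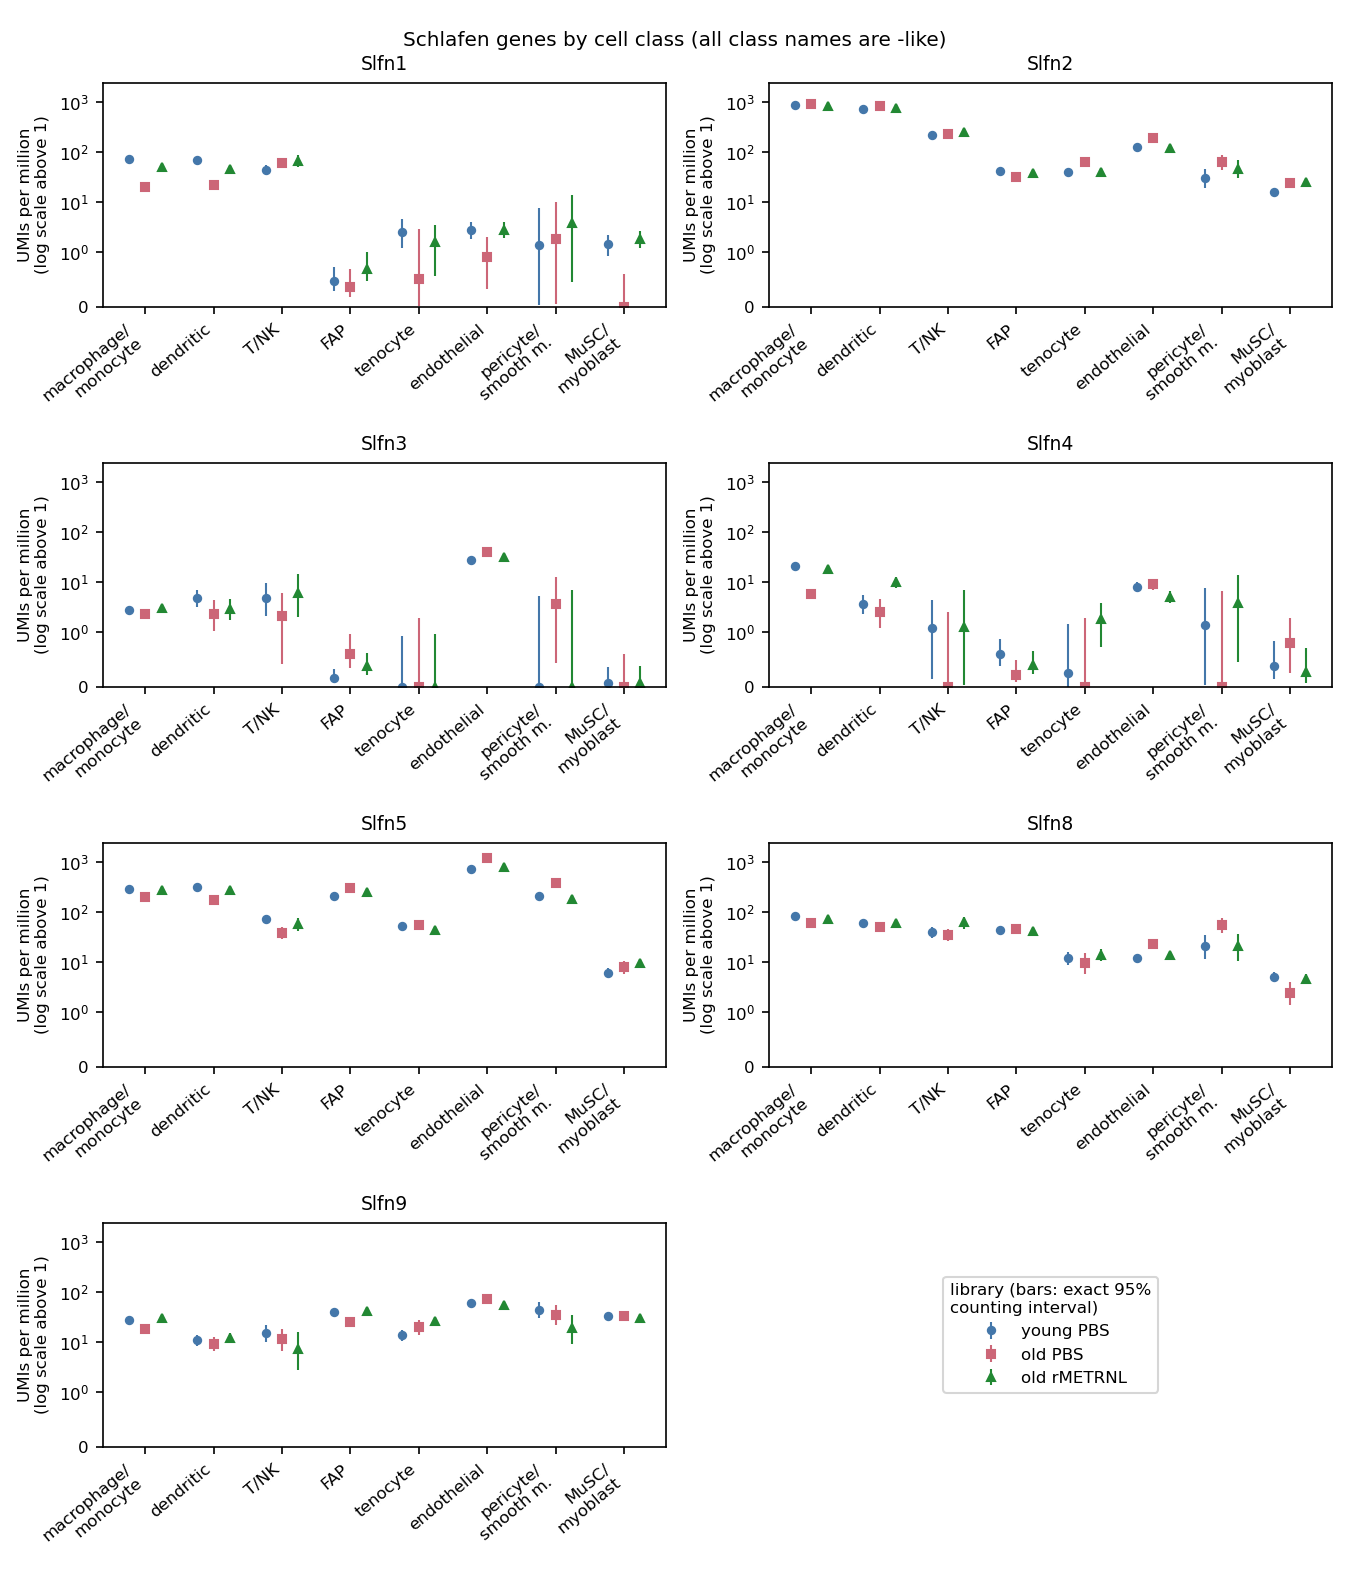
Level of each Schlafen gene (CPM, log scale above 1) in the 8 cell classes with at least 50 cells in every library, 1 point per library with its exact 95% counting interval. Slfn1, Slfn2 and Slfn8 had their highest points in immune classes, while Slfn3, Slfn5 and Slfn9 had theirs in endothelial-like cells in all 3 libraries.

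The orders of classes that follow are among the 8 classes with at least 50 cells in every library, and smaller groups are left out of them. Among the short members, Slfn1 was read in macrophage/monocyte-like, dendritic-like and T/NK-like cells and was low in the others of these classes. In young PBS its level was 71.4 CPM (69.7 to 73.1) in macrophage/monocyte-like cells, 68.0 CPM in dendritic-like cells and 44.0 CPM in T/NK-like cells, and the intervals of the first pair overlapped. In old PBS T/NK-like cells led among the 8 classes with 59.4 CPM (47.6 to 73.2), above 22.2 CPM in dendritic-like cells and 19.6 CPM in macrophage/monocyte-like cells. In old rMETRNL T/NK-like cells had 66.7 CPM, macrophage/monocyte-like cells 50.6 CPM and dendritic-like cells 46.3 CPM, with neighbours in this order overlapping. Macrophage/monocyte-like and dendritic-like cells were thus lowest in old PBS while the T/NK-like cells were lowest in young PBS. In FAP-like cells (fibro/adipogenic progenitors, the connective tissue cells of muscle) Slfn1 stood at 0.368 to 0.686 CPM.

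Among the 8 classes, Slfn2 had its highest level in macrophage/monocyte-like cells in each library, with 868, 921 and 844 CPM. Dendritic-like cells followed with 739, 836 and 760 CPM, then T/NK-like cells with 220, 234 and 248 CPM and endothelial-like cells with 124.9, 191 and 118 CPM. No neighbours among these 4 classes overlapped in any library.

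Of the intermediate members, Slfn3 was highest in endothelial-like cells, with 27.7, 40.5 and 31.4 CPM, and each of the other 7 classes lay at 6.06 CPM or lower. Slfn4 was highest in macrophage/monocyte-like cells in young PBS (20.96 CPM) and old rMETRNL (17.9 CPM). In old PBS endothelial-like cells had the highest level of it (8.88 CPM, 6.76 to 11.5), above the 5.66 CPM (5.19 to 6.17) of macrophage/monocyte-like cells. A small neutrophil-like group of 12, 15 and 33 cells had far more Slfn4, with 726 CPM (443 to 1121), 417 CPM (251 to 651) and 691 CPM (532 to 883). These rest on 20, 19 and 64 UMIs and their intervals overlap.

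Of the long members, Slfn5, which type I interferon induces in many cell types, was highest in endothelial-like cells, with 730, 1216 and 795 CPM. Pericyte/smooth muscle-like cells had 208, 388 and 179 CPM of it and FAP-like cells 208, 300 and 250 CPM. Slfn8 had its highest value among the 8 classes in macrophage/monocyte-like cells (83.7, 59.8 and 71.0 CPM), and FAP-like cells held 42.8, 45.6 and 41.3 CPM of it. The interval of the first overlapped with that of pericyte/smooth muscle-like (37.1 to 77.5 CPM) and dendritic-like cells (44.2 to 58.4 CPM) in old PBS and of T/NK-like cells in old rMETRNL (46.0 to 81.3 CPM). Slfn9 had its highest value in endothelial-like cells (59.7, 71.2 and 55.3 CPM), overlapping with pericyte/smooth muscle-like cells in young PBS (44.1 CPM, 30.2 to 62.2). It was also read in MuSC/myoblast-like cells (33.1, 32.3 and 30.4 CPM), the cells that build new fibres.

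Free RNA in a droplet gives every class a low level of macrophage transcripts. Its size was gauged with 10 macrophage genes (Lyz2, C1qa, Csf1r and others) as the median share of their macrophage/monocyte-like level. This share was 0.656% to 0.833% in FAP-like cells and 1.65% to 2.16% in MuSC/myoblast-like cells. Slfn1 in FAP-like cells stood at 0.665% to 1.87% of its macrophage/monocyte-like level and Slfn4 at 2.25% to 3.90%. In endothelial-like cells the gauge was 2.07%, 4.28% and 3.13%, and Slfn4 stood at 38.0%, 157% and 27.9% of its macrophage/monocyte-like level, above the range of the gauge genes in each library. After thinning to 2000 UMIs, 0 of 436, 0 of 195 and 0 of 407 MuSC/myoblast-like cells had a Slfn4 UMI, which allows shares of up to 0.688%, 1.54% and 0.737% of cells with a UMI at that depth. Without thinning 6, 3 and 3 of these cells had one, or 1.29%, 1.46% and 0.696%.

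In macrophage/monocyte-like cells the comparison of old PBS with young PBS asks how the injured muscle of old mice differs, and that of old rMETRNL with old PBS asks what goes with the protein. Slfn4 had 2014, 535 and 1961 UMIs, or 20.96 CPM (20.05 to 21.89), 5.66 CPM (5.19 to 6.17) and 17.9 CPM (17.1 to 18.7). Old PBS was the low library, and the other 2 did not overlap with it or with each other. The ratio of old PBS to young PBS was 0.270 (0.245 to 0.297) and that of old rMETRNL to old PBS was 3.15 (2.87 to 3.48). The second of these chose the family and is given as a description. The comparisons share the old PBS library, so that a low value there moves both ratios.

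Slfn1 had the same order, with 71.4 CPM (69.7 to 73.1), 19.6 CPM (18.8 to 20.6) and 50.6 CPM (49.3 to 51.9). The ratio of old PBS to young PBS was 0.275 (0.261 to 0.290) and that of old rMETRNL to old PBS was 2.58 (2.44 to 2.72). Slfn9 had 27.3, 17.9 and 30.1 CPM, and its ratios in the same order were 0.656 (0.617 to 0.698) and 1.68 (1.59 to 1.79). For these 3 genes old PBS was the lowest library. Slfn5 had 296, 205 and 275 CPM, which gave 0.694 and 1.34, and Slfn8 had 83.7, 59.8 and 71.0 CPM, which gave 0.715 and 1.19. Slfn3, with 212 to 329 UMIs in a library, had 2.75, 2.24 and 2.998 CPM, which gave 0.817 (0.679 to 0.983) and 1.34 (1.12 to 1.59). Slfn2 went the other way by a small amount, with ratios of 1.06 (1.05 to 1.07) and 0.916 (0.908 to 0.925). It was the only one of the 7 above 1 in the first comparison and below 1 in the second, and both of its ratios turned to the other side of 1 when subset shares were held fixed, as described further on.

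A difference was counted where the ratio was at least 1.5-fold and its counting interval left out 1. Of 7 members, 3 were lower in old PBS than in young PBS (Slfn1, Slfn4 and Slfn9) and 0 were higher, where 5.99% of the 14266 genes with at least 50 UMIs were lower and 5.19% higher. The same 3 members were higher in old rMETRNL than in old PBS, where 5.11% of genes were higher, and 0 were lower, where 2.81% were lower. The rule that chose the family used this second comparison. Between old rMETRNL and young PBS 0 members passed in either direction, where 3.33% of genes were higher and 1.63% lower, with ratios of 0.708 for Slfn1, 0.853 for Slfn4 and 1.10 for Slfn9. The median ratio of the 7 members was 0.694 in the first comparison, 1.34 in the second and 0.930 in the last, beside 0.997, 1.04 and 1.03 over all genes. Of the 14266 genes, 38 had a lower ratio of old PBS to young PBS than Slfn4 and 41 had a lower ratio than Slfn1. The choice by the second comparison favours a low Slfn4 value in old PBS, so its place in the first is a description.

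**Figure D2:**
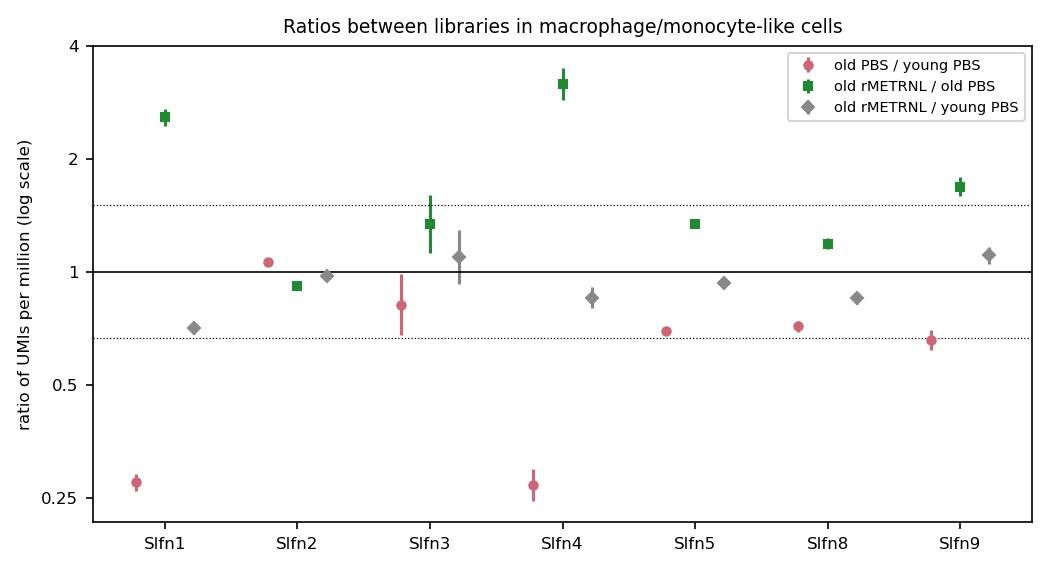
Ratio of CPM between libraries (log scale) for each Schlafen gene in macrophage/monocyte-like cells, with exact 95% counting intervals and dotted lines at 1.5-fold either way. Slfn4 and Slfn1 stand at 0.270 and 0.275 in old PBS over young PBS and at 3.15 and 2.58 in old rMETRNL over old PBS, while Slfn2 stays near 1.

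The share of cells with a UMI showed the same order. After thinning to 2000 UMIs, which left out 47, 82 and 59 shallower cells, Slfn4 was found in 4.57% (4.05 to 5.13), 1.39% (1.10 to 1.74) and 3.74% (3.29 to 4.23) of macrophage/monocyte-like cells. Without thinning the shares were 16.6%, 6.22% and 14.6%, at a median of 14240 to 14971 UMIs a cell, beside the 0.696% to 1.46% of MuSC/myoblast-like cells given above, at a median of 27703 to 29927 UMIs. Slfn1 was found in 14.0%, 4.40% and 10.7% of thinned cells. Slfn2 was found in 72.9%, 74.5% and 71.4%. Cells with a thinned Slfn4 UMI also held Slfn1 more often than other cells, in 29.0% against 13.3% of young PBS cells, 22.1% against 4.15% of old PBS cells and 36.5% against 9.71% of old rMETRNL cells.

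Transcripts of other cell types were read in the same cells. Of 12 neutrophil genes, 7 had at least 50 UMIs in macrophage/monocyte-like cells, and their summed level over all 12 was 81.5, 64.4 and 58.7 CPM. Ly6g, a defining neutrophil gene, was at 0 in old PBS and old rMETRNL. Among these genes 2 were lower and 1 was higher in old PBS than in young PBS, and 3 were higher in old rMETRNL than in old PBS. The one that differed most was Mmp9, a matrix protease that macrophages also make, with 21.8, 0.678 and 1.39 CPM. Of 10 dissociation stress genes (Fos, Jun, Egr1 and others), 4 were lower in old PBS than in young PBS, and 3 were higher and 1 lower in old rMETRNL than in old PBS, with summed levels of 5829, 4439 and 5639 CPM. The part of these genes in the Schlafen ratios was not tested.

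The macrophage/monocyte-like cells were split again into 13 sub-clusters, of which 10 fell into 6 named subsets. Slfn4 was concentrated in Ly6c2-high monocyte-like cells, the form that enters from blood. Its level there was 95.3 CPM (87.9 to 103), 33.5 CPM (28.2 to 39.5) and 97.3 CPM (90.6 to 104). Young PBS and old rMETRNL overlapped and old PBS lay far below them. Interferon macrophage-like cells came next with 33.7, 23.7 and 35.5 CPM, and the other named subsets lay between 2.58 and 16.2 CPM.

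Slfn1 had 180, 132 and 156 CPM in interferon macrophage-like cells and 173, 78.4 and 179 CPM in Ly6c2-high monocyte-like cells. The intervals of these subsets overlapped in young PBS, while the interferon subset was higher in old PBS and the monocyte-like subset was higher in old rMETRNL. For Slfn1 the ratio of old PBS to young PBS was 0.452 (0.399 to 0.512) in the monocyte-like cells and 0.735 (0.647 to 0.832) in interferon macrophage-like cells. In cycling cells, which divide, the ratio of Slfn1 was 0.233 (0.170 to 0.313) and that of Slfn4 was 0.282 (0.171 to 0.450). Of 7 members, 3 were lower in old PBS than in young PBS among Ly6c2-high monocyte-like cells (Slfn1, Slfn4 and Slfn9; 4.02% of genes were) and 4 among cycling cells (Slfn1, Slfn4, Slfn5 and Slfn8; 4.01% of genes were). In old rMETRNL 3 members were higher than in old PBS in each, where 4.52% and 3.77% of genes were. The other subsets had fewer. Among interferon macrophage-like cells 0 of 7 members were lower in old PBS (2.38% of genes were) and 1, Slfn3, was higher in old rMETRNL (2% of genes were). Slfn1 and Slfn4 were the 2 members lower in old PBS in Il1a/Slc7a11 macrophage-like (2.72% of genes), Lyve1/Cd163-positive macrophage-like (5.56%) and Spp1/Gpnmb macrophage-like cells (4.6%). In old rMETRNL the members higher than in old PBS were Slfn1 in the first of these (2.04% of genes), Slfn1 and Slfn9 in the second (7.39%) and Slfn1 and Slfn4 in the third (3.52%).

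Slfn2 had a pattern of its own among the subsets. It was high in Ly6c2-high monocyte-like cells (1394, 1431 and 1440 CPM) and in Il1a/Slc7a11 macrophage-like cells, an inflammatory subset (1355, 1258 and 1376 CPM), and lay between 503 and 684 CPM in the other 4. Slfn9 was highest in cycling cells, with 71.7, 67.2 and 91.9 CPM, and lowest in Spp1/Gpnmb macrophage-like cells, with 10.1, 8.23 and 11.7 CPM. Slfn5 and Slfn8 followed the interferon and monocyte subsets, with Slfn5 at 474, 540 and 572 CPM in interferon macrophage-like cells and at 490, 355 and 527 CPM in Ly6c2-high monocyte-like cells.

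**Figure D3:**
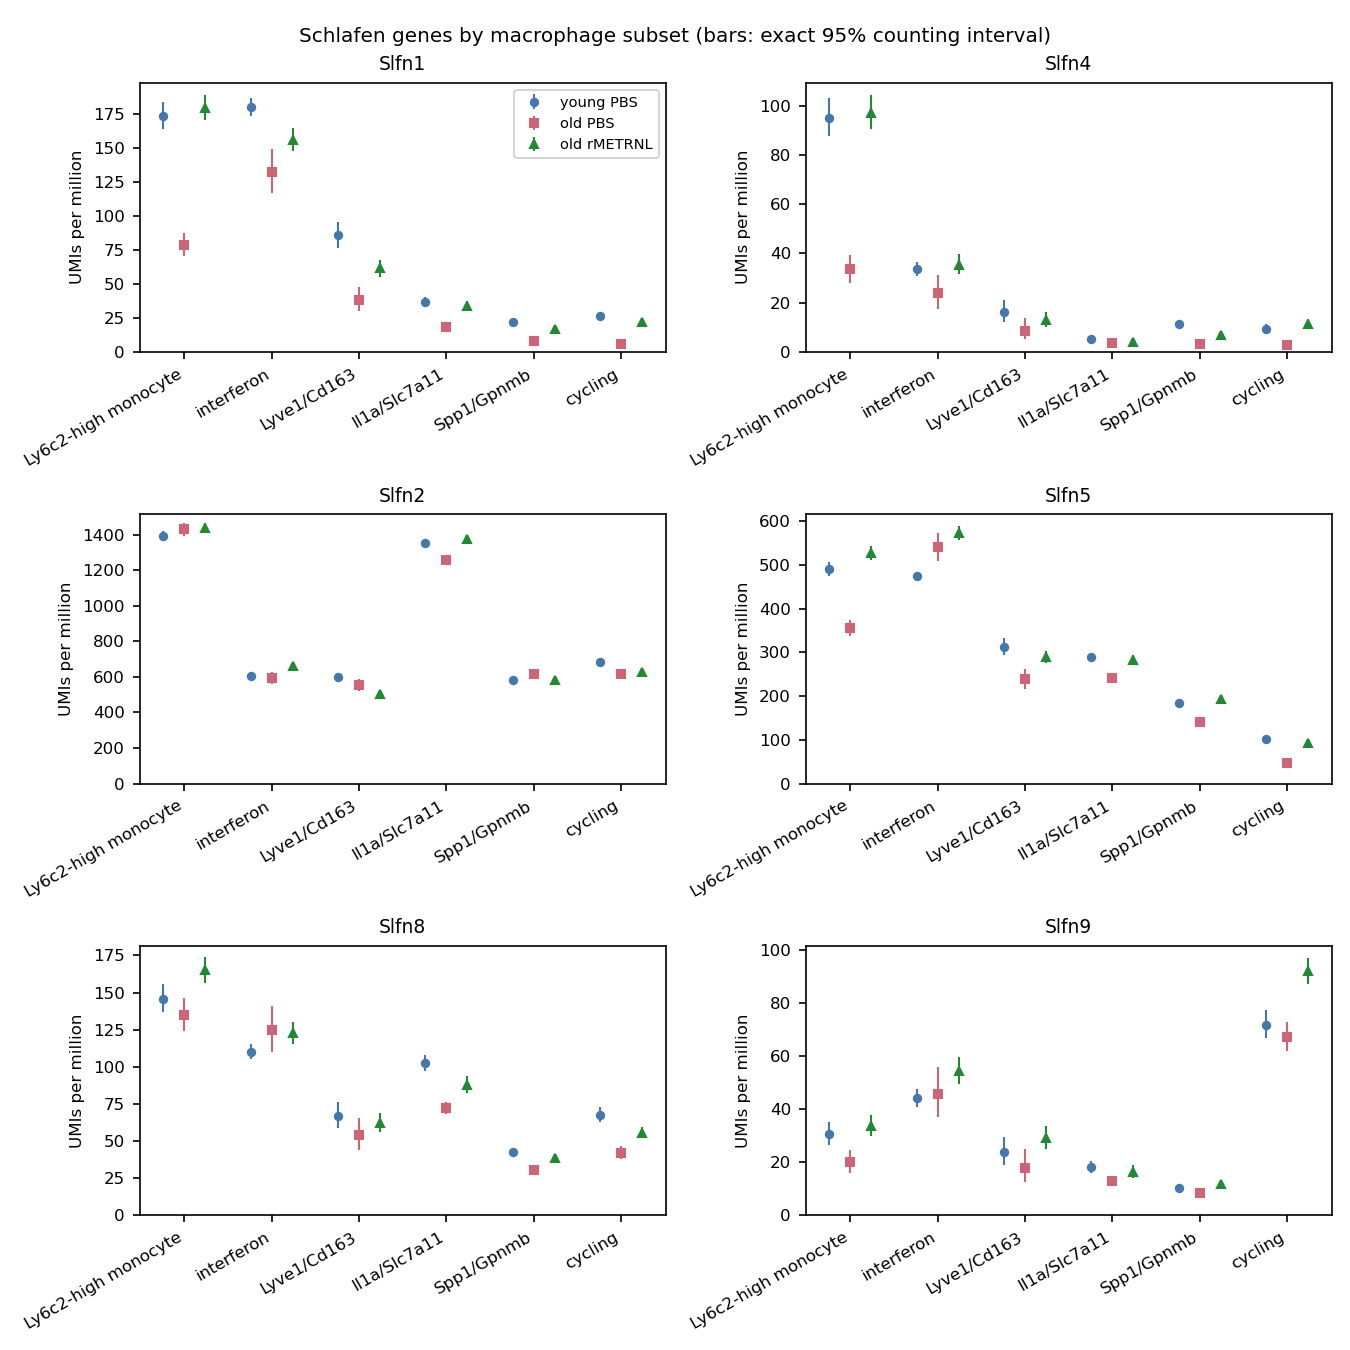
Level of 6 Schlafen genes (CPM) in 6 named macrophage subsets, 1 point per library with its exact 95% counting interval. Slfn4 peaks in Ly6c2-high monocyte-like cells, where old PBS stands at 33.5 beside 95.3 and 97.3, and Slfn9 peaks in cycling cells.

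The libraries differed in which subsets held their macrophage/monocyte-like cells. Young PBS had 1139 interferon macrophage-like cells, old PBS 163 and old rMETRNL 577, and the Ly6c2-high monocyte-like cells numbered 646, 390 and 820. The class ratios were therefore computed again with the subset shares of old PBS held fixed in all libraries. The shares are those of summed UMIs, not of cells, over all sub-clusters, the unnamed ones included. The ratio of old PBS to young PBS for Slfn4 then went from 0.270 to 0.387 and that of old rMETRNL to old PBS from 3.15 to 2.24. For Slfn1 the ratios went from 0.275 to 0.476 and from 2.58 to 1.89. For Slfn9 they went from 0.656 to 0.852 and from 1.68 to 1.28, so that Slfn9 no longer reached 1.5-fold in either comparison. For Slfn5 they were 0.797 and 1.26, for Slfn8 0.785 and 1.13, and for Slfn3 0.927 and 1.04. For Slfn2 they went from 1.06 to 0.954 and from 0.916 to 1.04, which turned both to the side of the other members.

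Within the 13 sub-clusters Slfn1 was lower in old PBS than in young PBS in 13, with the interval below 1 in 12, and higher in old rMETRNL than in old PBS in 13, with the interval above 1 in 11. Slfn4 was lower in old PBS in 12, with the interval below 1 in 10, and higher in old rMETRNL in 10, with the interval above 1 in 8. Its ratio of old rMETRNL to old PBS ran from 0.482 to 4.91 among sub-clusters. The rule that chose the family used this ratio over these same cells, and both comparisons share the old PBS library. Sub-clusters of a library are not replicates, so these counts are descriptions. Slfn2 was below 1 in 9 of 13 and above 1 in 4 in the first comparison, with ratios from 0.665 to 1.03.

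Genes of the interferon pathway were read in the same cells. Of 40 interferon-stimulated genes on a fixed list, 38 were in the files and 37 had at least 50 UMIs in macrophage/monocyte-like cells. Of these 37, 30 were lower in old PBS than in young PBS and 0 were higher, and 26 were higher in old rMETRNL than in old PBS and 0 were lower. Their median ratios were 0.472 and 1.66, beside 0.997 and 1.04 over all genes. Ifit3, an antiviral effector, had 183, 46.8 and 144 CPM. Isg15, a ubiquitin-like modifier, had 234, 94.4 and 207 CPM. Cxcl10, a chemokine that draws T cells, had 366, 146 and 267 CPM. Gbp2, which attacks microbes inside the cell, differed little, with 114, 102 and 124 CPM.

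Of 14 genes of the type I interferon signal chain, 4 were lower in old PBS than in young PBS and 3 were higher in old rMETRNL than in old PBS, where 5.99% and 5.11% of all genes were. Their median ratios were 0.871 and 1.02, beside 0.997 and 1.04 over all genes. Usp18, which dampens the receptor, had 51.2, 19.3 and 45.9 CPM. Stat2, which carries the signal to the nucleus, had 73.7, 34.7 and 59.6 CPM. Irf7, which amplifies it, had 581, 241 and 377 CPM. The receptor subunit Ifnar1 had 73.8, 79.9 and 73.1 CPM, and the ligand Ifnb1 had 0.479, 0.667 and 0.474 CPM. These lists were chosen with the values of the series known and are no independent evidence of a direction.

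Of 15 genes of Ly6c2-high monocytes, 8 were higher in old rMETRNL than in old PBS and 0 were lower, while 4 were lower and 2 were higher in old PBS than in young PBS. Their median ratios were 1.56 and 0.912 in these comparisons, and their summed level was 1509, 1333 and 1621 CPM. Ly6c2 itself had 276, 119 and 222 CPM, and Plac8 had 231, 88.8 and 226 CPM. The 2 that were higher in old PBS were F10, a clotting factor, with 24.8, 45.3 and 31.9 CPM and Clec4e, a receptor for microbial glycolipids, with 102, 158 and 117 CPM.

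Cells with like amounts of interferon-stimulated transcripts were then set side by side. After thinning to 2000 UMIs, a macrophage/monocyte-like cell held on average 12.5, 6.70 and 10.9 UMIs of the list. Slfn1, Slfn4, Slfn5 and Slfn8 were each highest, in every library, in cells with 6 or more such UMIs. In these (4276, 2126 and 3870 cells), Slfn4 had 36.1 CPM (32.2 to 40.4), 17.6 CPM (13.9 to 22.1) and 36.6 CPM (32.4 to 41.1), and Slfn1 had 121, 53.6 and 107 CPM. Old PBS was low for both genes, with ratios to young PBS of 0.488 (0.374 to 0.630) and 0.445 (0.384 to 0.514). The ratios of old rMETRNL to old PBS had intervals of 1.602 to 2.71 and 1.73 to 2.33.

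Slfn5 and Slfn8 differed from them. In the same cells Slfn5 had 396 CPM (383 to 409), 406 CPM (387 to 425) and 444 CPM (430 to 459), and Slfn8 had 110, 113 and 112 CPM. The ratio of old PBS to young PBS was 1.02 (0.967 to 1.09) for Slfn5 and 1.02 (0.913 to 1.14) for Slfn8, beside 0.694 and 0.715 over the whole class. The ratio of old rMETRNL to old PBS was 1.10 (1.03 to 1.16) for Slfn5 and 0.991 (0.885 to 1.11) for Slfn8. In cells with 3 to 5 such UMIs the ratios of old PBS to young PBS were 0.952 and 0.882 for Slfn5 and Slfn8, with both intervals holding 1, and 0.263 (0.118 to 0.548) and 0.485 (0.299 to 0.779) for Slfn4 and Slfn1. The ratios of old rMETRNL to old PBS in that bin had intervals that held 1 for all of these genes, with 1.55 (0.667 to 3.74) for Slfn4 and 1.31 (0.801 to 2.16) for Slfn1. In cells with 1 to 2 such UMIs Slfn4 rested on 12, 7 and 7 UMIs and Slfn1 on 4, 15 and 14 UMIs, with ratios of old PBS to young PBS of 0.210 (0.0702 to 0.580) and 1.35 (0.431 to 5.60).

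**Figure D4:**
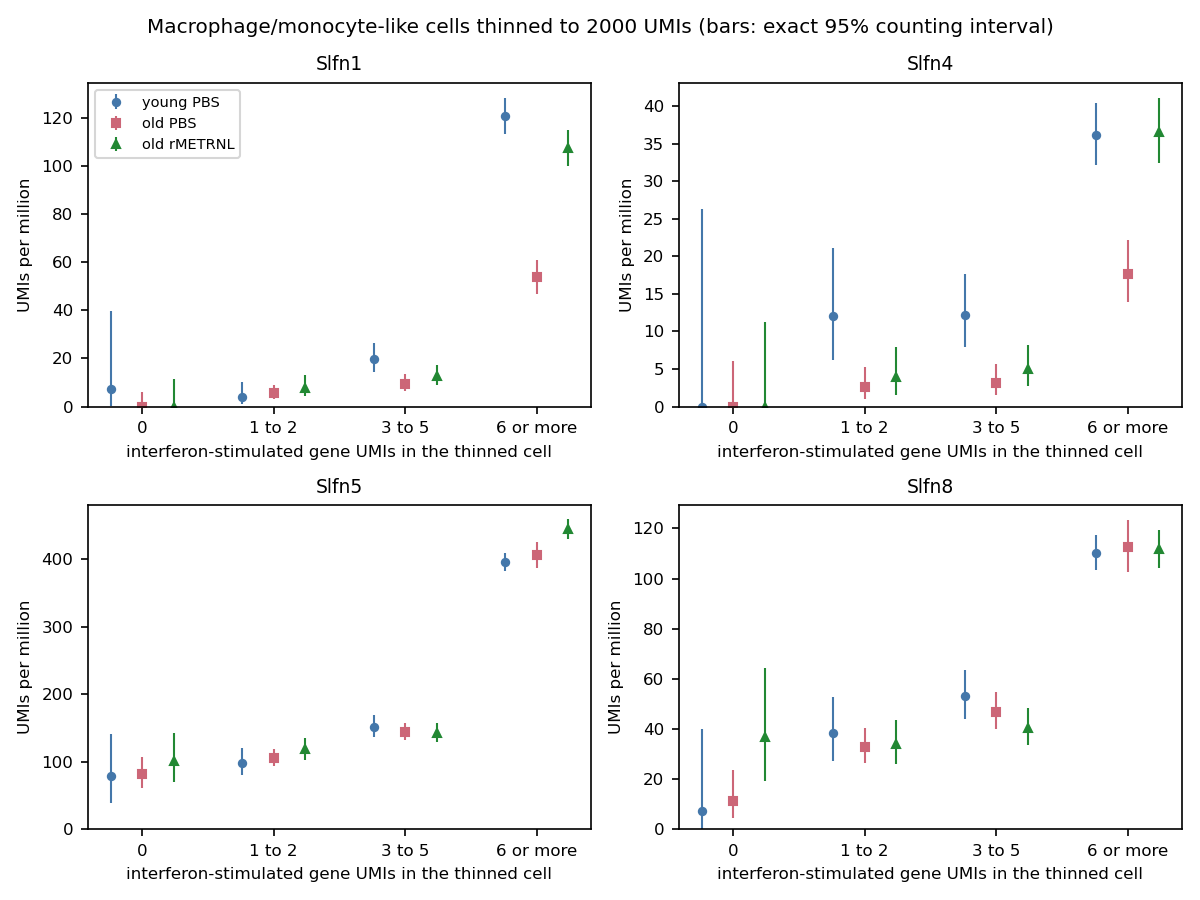
Level of 4 Schlafen genes (CPM) in macrophage/monocyte-like cells thinned to 2000 UMIs and grouped by the number of interferon-stimulated gene UMIs in the cell, 1 point per library with its exact 95% counting interval. In cells with 6 or more such UMIs old PBS is low for Slfn1 and Slfn4 and is not low for Slfn5 and Slfn8.

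The bin of 6 or more UMIs is open at the top and could hold richer cells in one library than in another. It was therefore split into 6 to 10, 11 to 20 and 21 or more UMIs, a choice made after seeing the data. In cells with 21 or more (977, 299 and 887 cells), Slfn4 had 78.3 CPM (66.4 to 91.7), 38.5 CPM (24.4 to 57.7) and 74.4 CPM (62.3 to 88.2), and Slfn1 had 256, 167 and 259 CPM. In cells with 11 to 20 UMIs Slfn1 had 114, 64.2 and 95.9 CPM, while the Slfn4 values of 29.7, 22.9 and 34.2 CPM overlapped. In cells with 6 to 10 UMIs Slfn1 had 46.4, 17.8 and 33.0 CPM and Slfn4 had 17.6, 9.14 and 17.7 CPM, with overlapping intervals for Slfn4 (5.66 to 13.97 in old PBS and 13.36 to 22.7 in young PBS). By overlap of these intervals, Slfn4 in old PBS lay apart from the other libraries in 1 of the 3 bins, that of 21 or more UMIs. Ratio intervals are not given for these finer bins, and levels whose intervals overlap can still differ. In the top bin Slfn5 had 704, 876 and 834 CPM and Slfn8 had 175, 244 and 209 CPM, so that young PBS was the lowest library for both. Its interval overlapped with neither old library for Slfn5 (667 to 742) and overlapped with old rMETRNL but not with old PBS for Slfn8 (156 to 194), and the old libraries overlapped with each other. In cells with 11 to 20 UMIs Slfn5 (392, 442 and 426 CPM) and Slfn8 (109, 117 and 106 CPM) had overlapping intervals throughout. In cells with 6 to 10 UMIs Slfn5 had 217 CPM (202 to 234), 262 CPM (241 to 283) and 245 CPM (228 to 262), and Slfn8, at 73.4, 76.2 and 62.5 CPM, overlapped throughout.

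Grouping by Ly6c2 gave a like result for Slfn1 and Slfn4. In thinned cells with 2 or more Ly6c2 UMIs (759, 321 and 747 cells), Slfn4 had 112 CPM (95.8 to 130), 31.2 CPM (19.0 to 48.1) and 101 CPM (85.6 to 119). In cells with 0 Ly6c2 UMIs it had 13.9, 5.98 and 10.8 CPM. Slfn1 had 212, 74.8 and 207 CPM in the first of these groups and 67.7, 21.4 and 45.4 CPM in the second. Cells of 1 library are not replicates, and whether the low Slfn1 and Slfn4 levels in old PBS would be found in other mice was not measured.

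Genes whose level ran most like that of each member were sought over 18 points, namely 6 macrophage subsets in 3 libraries, among 10369 genes. The points share libraries and depth, and the correlations are descriptions. For Slfn1 the nearest gene was Zbp1, a sensor of nucleic acid (r = 0.975), followed by Samhd1, Stat2 and Sp100. For Slfn2 it was Il1b, the inflammatory cytokine (r = 0.986). For Slfn4 the 5 nearest were Gm39556, Ms4a4b, Ifitm3, Nmi and Lipg, with r = 0.926 for the first. Slfn8 ran with Rnf213, Parp14, Ms4a4c, Ifi211 and Ifi204, and Slfn9 with Sass6, which builds centrioles, Cgas, Spop, Lrwd1 and Dck. Slfn5 ran with Serp1, Adap2os, H2-T23, Lst1 and Samhd1, and Slfn3 with Mlkl, Triobp, Map2k1, Clic1 and Psma5. Among the members themselves Slfn1 and Slfn4 had r = 0.892, Slfn1 and Slfn5 r = 0.884, and Slfn2 had r = 0.237 with Slfn1, 0.246 with Slfn4, 0.338 with Slfn5 and 0.618 with Slfn8. Over 27 points of cell classes and libraries Slfn2 had r = 0.838 with Slfn1.

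Dendritic-like cells (575, 331 and 600 cells) had the same low value of old PBS for Slfn1 and Slfn5. Slfn1 had 68.0 CPM (61.7 to 74.7), 22.2 CPM (17.9 to 27.4) and 46.3 CPM (41.3 to 51.8), and Slfn5 had 314, 174 and 284 CPM. Slfn4 rested on 23, 10 and 65 UMIs, with 3.61 CPM (2.29 to 5.42), 2.50 CPM (1.20 to 4.59) and 9.77 CPM (7.54 to 12.5), so that old rMETRNL stood above both others. Of 7 members, 2 were lower in old PBS than in young PBS, where 6.36% of genes were lower, and 3 were higher in old rMETRNL than in old PBS, where 4.72% were higher. Of the 37 interferon-stimulated genes 23 were lower and 24 higher in these comparisons. The dissociation stress genes moved with them, 5 of 10 lower and 5 of 10 higher, with summed levels of 8208, 4964 and 7725 CPM, and their part was not tested. In Xcr1/Clec9a-positive dendritic-like cells, which present antigen to cytotoxic T cells, Slfn5 had 565, 188 and 411 CPM and Slfn1 had 50.8, 13.7 and 25.5 CPM. In Cd209a-positive dendritic-like cells Slfn4 had 0 UMIs in each library and Slfn5 had 190, 123 and 146 CPM.

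T/NK-like cells (208, 181 and 122 cells) did not share the low Slfn1 value. Slfn1 had 44.0 CPM (34.5 to 55.4), 59.4 CPM (47.6 to 73.2) and 66.7 CPM (50.2 to 86.8) there, and the intervals of the ratios, 0.978 to 1.87 and 0.786 to 1.59, held 1. Slfn5 had 73.6, 38.5 and 57.0 CPM, with a ratio of old PBS to young PBS of 0.523 (0.375 to 0.722), the 1 member that was lower among the 4 with at least 50 UMIs, and 4.61% of genes were lower in this comparison. In old rMETRNL Slfn8 alone was higher than in old PBS, with a ratio of 1.80 (1.19 to 2.70) from 39.2, 34.4 and 61.8 CPM, where 3.18% of genes were higher. Slfn1 and Slfn2 were read in T-like cells (68.7, 103 and 59.3 CPM for Slfn1) and Slfn1 was near 0 in NK-like cells (0, 2 and 1 UMIs). The T-like cells numbered 15, 59 and 13 and the NK-like cells 89, 29 and 34, so that the mix differed between libraries.

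In endothelial-like, pericyte/smooth muscle-like and FAP-like cells the direction of Slfn5 was the opposite. In endothelial-like cells it had 730 CPM (714 to 747), 1216 CPM (1189 to 1243) and 795 CPM (779 to 812). The ratio of old PBS to young PBS was 1.66 (1.61 to 1.72) and that of old rMETRNL to old PBS was 0.654 (0.635 to 0.674). In pericyte/smooth muscle-like cells the ratios were 1.86 (1.51 to 2.31) and 0.462 (0.360 to 0.590), and in FAP-like cells 1.44 (1.40 to 1.49) and 0.834 (0.810 to 0.858). Tenocyte-like cells had 53.4, 54.0 and 42.7 CPM of Slfn5 and MuSC/myoblast-like cells had 6.04, 7.80 and 9.57 CPM, and in both the intervals of the ratios (0.794 to 1.28 and 0.616 to 1.02 in the first, 0.895 to 1.84 and 0.881 to 1.74 in the second) held 1. The difference between classes was not tested, because each class had 1 library per group.

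The endothelial-like class joined 2 clusters, which were then read apart, a choice made after seeing the data. The larger, led by Cldn5 and Gpihbp1, held 491, 800 and 800 cells at a median of 10561, 3304 and 5496 UMIs. Slfn5 had 632, 1211 and 738 CPM in it, with ratios of 1.92 (1.85 to 1.99) for old PBS to young PBS and 0.610 (0.589 to 0.631) for old rMETRNL to old PBS. The smaller, led by Selp and Ackr1, held 155, 120 and 161 cells at a like median depth of 11995, 11234 and 11639 UMIs. Slfn5 had 1126, 1233 and 1055 CPM in it, and the ratios were 1.10 (1.03 to 1.17) and 0.856 (0.803 to 0.912). The direction was thus shared by both clusters, and the difference was smaller in the second. The clusters differ in their leading genes as well as in depth, so the part of depth cannot be told apart. Slfn8 had 8.83, 23.3 and 11.6 CPM in the larger cluster and 23.3, 22.8 and 22.9 CPM in the smaller, where its intervals overlapped. Slfn2 had 98.1, 165 and 98.9 CPM in the larger and 233, 286 and 207 CPM in the smaller.

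In endothelial-like cells 3 of 7 members (Slfn2, Slfn5 and Slfn8) were higher in old PBS than in young PBS, where 8.35% of genes were higher, and 1 (Slfn1, on 28 and 6 UMIs) was lower, where 7.47% were lower. Slfn1 stood at 3.86%, 4.60% and 5.46% of its macrophage/monocyte-like level there, which in old PBS lies within the range of the free RNA gauge genes (3.63% to 4.85%). In old rMETRNL 4 members were lower than in old PBS, where 5.43% of genes were lower, and 1 was higher, where 5.05% were higher. Of the 37 interferon-stimulated genes 3 were higher and 6 lower in old PBS than in young PBS in these cells, and 0 were higher and 6 lower in old rMETRNL than in old PBS. The endothelial-like cells differed in depth, with a median of 11376, 3943 and 7239 UMIs, and the free RNA gauge there was 2.07%, 4.28% and 3.13%. Of 12 genes of mature macrophages, 8 were higher in old PBS than in young PBS in these cells, with summed levels of 1377, 2317 and 2022 CPM. The part of free RNA and that of depth in these ratios were not tested. In cells thinned to 2000 UMIs Slfn5 was found in 67.5% (63.7 to 71.3), 78.5% (75.3 to 81.5) and 71.1% (67.8 to 74.3) of endothelial-like cells.

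**Figure D5:**
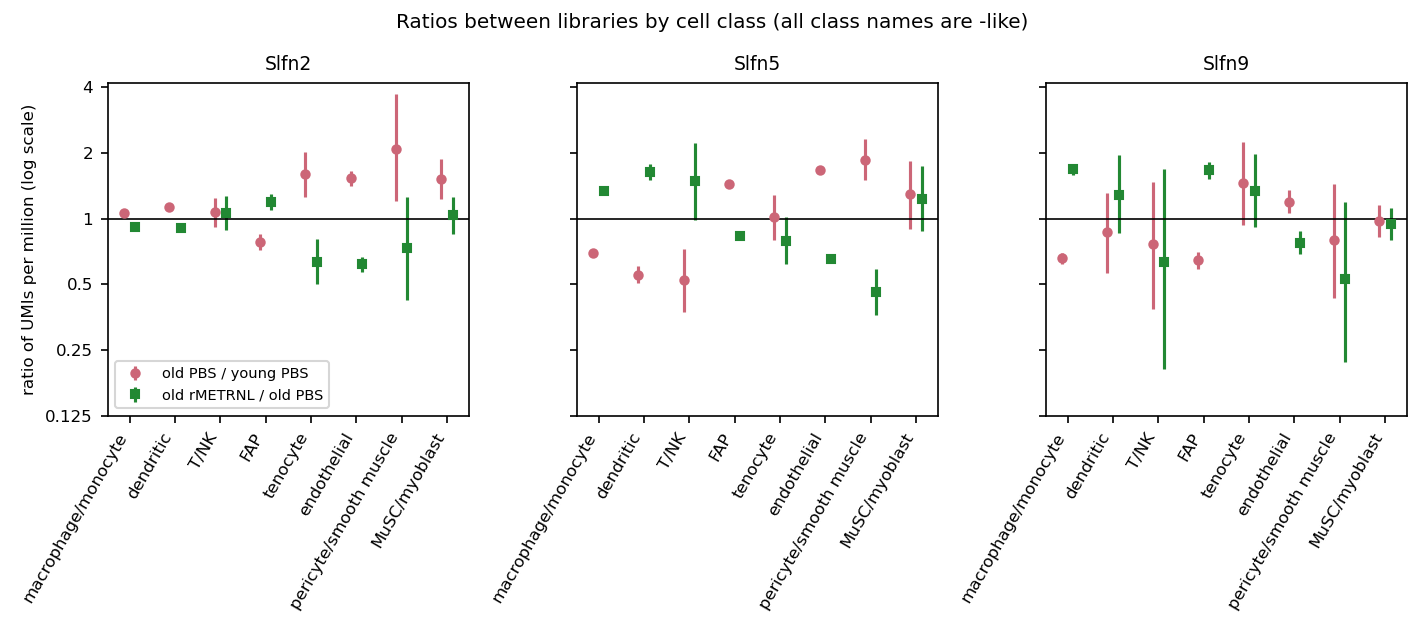
Ratio of CPM between libraries (log scale) for Slfn2, Slfn5 and Slfn9 in 8 cell classes, with exact 95% counting intervals. Slfn5 in old PBS over young PBS lies below 1 in macrophage/monocyte-like, dendritic-like and T/NK-like cells and above 1 in FAP-like, endothelial-like and pericyte/smooth muscle-like cells.

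In pericyte/smooth muscle-like cells (82, 105 and 82 cells) 3 of the 4 members with at least 50 UMIs (Slfn2, Slfn5 and Slfn8) were higher in old PBS than in young PBS, where 9.8% of genes were higher, and Slfn5 and Slfn8 were lower in old rMETRNL than in old PBS, where 5.4% were lower. Slfn8 rested on 15, 31 and 11 UMIs there. Slfn2 stood at 3.49%, 6.89% and 5.53% of its macrophage/monocyte-like level beside a free RNA gauge of 4.19%, 4.79% and 5.40%. It lay above the range of the gauge genes in old PBS (4.25% to 5.41%). In young PBS and old rMETRNL it lay within that range, so that free RNA and expression cannot be told apart there. The part of free RNA in its ratios was not tested. In tenocyte-like cells Slfn2 had 39.9, 63.6 and 40.4 CPM and was the 1 member that was higher in old PBS than in young PBS (5.89% of genes) and lower in old rMETRNL than in old PBS (4.07% of genes). The free RNA gauge in these cells was 2.86%, 7.10% and 3.46%, and Slfn2 stood at 4.59%, 6.90% and 4.78% of its macrophage/monocyte-like level, so that free RNA and expression cannot be told apart for it.

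In MuSC/myoblast-like cells Slfn9 had 33.1 CPM (30.3 to 36.1), 32.3 CPM (28.0 to 37.1) and 30.4 CPM (27.7 to 33.4), and the intervals of the ratios, 0.825 to 1.15 and 0.796 to 1.12, held 1. Slfn8 had 5.04, 2.39 and 4.55 CPM on 80, 15 and 66 UMIs. It was the 1 member lower in old PBS than in young PBS (2.95% of genes) and the 1 higher in old rMETRNL than in old PBS (2.18% of genes). Slfn2 was higher in old PBS than in young PBS (3.97% of genes), at 15.6, 23.7 and 24.5 CPM, which is 1.80%, 2.57% and 2.91% of its macrophage/monocyte-like level beside a gauge of 1.65%, 1.86% and 2.16%.

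In FAP-like cells Slfn9 had 39.4 CPM (37.6 to 41.3), 25.3 CPM (23.5 to 27.3) and 42.1 CPM (40.2 to 44.1). It was the only one of the 5 members with at least 50 UMIs there to pass 1.5-fold, lower in old PBS than in young PBS, where 5.99% of genes were lower, and higher in old rMETRNL than in old PBS, where 3.93% were higher. Of 10 cell cycle genes, 5 were lower in old PBS and 9 were higher in old rMETRNL in these cells, among them Cdk1 with 45.8, 23.8 and 49.5 CPM. The part of dividing cells in the Slfn9 ratio was not tested. Slfn5 differed between the FAP-like subsets. It had 299, 491 and 295 CPM in Inmt/Myoc/C7-positive cells, 265, 401 and 326 CPM in Pi16/Dpp4-positive cells, 390, 420 and 486 CPM in interferon FAP-like cells and 88.0, 81.1 and 86.6 CPM in Crabp1/Il11/Inhba-positive cells. The mix of subsets also differed. Interferon FAP-like cells numbered 215, 377 and 303 and Inmt/Myoc/C7-positive cells 106, 223 and 166 of 1590, 1226 and 1609 FAP-like cells, and the part of this mix in the Slfn5 ratios of the class was not tested.

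Reads of close relatives can be shared. Of the 90-base windows in the last 400 bases of Slfn8 transcripts, 3.21% were also in Slfn9 and 12.1% in the pseudogene Slfn10-ps, which was not among the features, and for Slfn9 these shares were 1.93% and 12.8%. The values of Slfn8 and Slfn9 are uncertain to that extent. Of such windows, 0 of Slfn1 and 0 of Slfn4 were in another Schlafen gene, and 0.943% of those of Slfn3 were in Slfn4. Slfn5os lies antisense to Slfn5 and had 35 UMIs in all 3 libraries.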

How the data were processed

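Single-cell RNA was measured in 3 libraries, 1 per group. The authors deposited raw UMI counts per gene and barcode, made with Cell Ranger (the submitters' processing notes name versions 5.0.0 and 3.1.0 and the build mm10; the study's methods name another version). No sample column was left unused (0). Barcodes passed with 500 or more genes and a mitochondrial share below 10%. The automatic Scrublet threshold called 0 doublets, so the top scores were removed at 0.8% per 1000 barcodes (1110, 1112 and 1433 cells). Scaled counts of 2000 variable genes without the Schlafen genes gave 30 components, a graph of 20 neighbours and 23 Leiden clusters at resolution 0.8 (Python 3.11.15, scanpy 1.11.5, leidenalg 0.10.2, igraph 0.11.9, scipy 1.17.1). Names rest on marker lists. The naming conditions were revised after the cluster tables had been seen, and they kept 257, 472 and 320 cells of sub-clusters led by genes of other cell types out of the macrophage/monocyte-like class. Subsets that could not be named entered only the counts over sub-clusters and the fixed-share ratios.

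UMIs were summed per class and library and divided by the class total (CPM). Levels carry exact Poisson intervals, shares of cells exact Clopper-Pearson intervals, and ratios the exact interval of 2 counts given their sum. The limit for a share of 0 is 3 counts. Genes entered counts of differences with at least 50 UMIs over the 3 libraries. Likeness is Pearson's r of log2(CPM + 1) over units of at least 50 cells, among genes with at least 500 UMIs, and the 5 nearest genes are named. All 7 members are named. Members, gene lists and alternatives were chosen with earlier results of these data known. The ratio and interval calculation was tested on simulated counts. Gene positions are from GENCODE (GRCm38) and promoters from RefSeq (GRCm38.p6), where all 7 members matched with 8 promoters. Protein sequences were not used here.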

Additional observations from a re-analysis of the deposited data

Results flagged for a closer look

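Several Schlafen ratios lay on opposite sides of 1 in different cell classes, by at least 1.5-fold and with intervals that left out 1 on each side. With 1 library per group the difference between classes was not tested in any of these cases. For old rMETRNL over old PBS, Slfn4 stood at 3.15 in macrophage/monocyte-like and 3.91 in dendritic-like cells and at 0.562 in endothelial-like cells. In the endothelial-like cluster led by Cldn5 it was 0.614 (0.375 to 1.01), on 37 and 34 UMIs. In the cluster led by Selp it was 0.549 (0.286 to 1.04), on 19 and 25 UMIs, so that the interval held 1 in each cluster. For old PBS over young PBS, Slfn5 stood at 1.86 in pericyte/smooth muscle-like and 1.66 in endothelial-like cells and at 0.554 in dendritic-like and 0.523 in T/NK-like cells. For old rMETRNL over old PBS, Slfn5 stood at 1.63 in dendritic-like cells and at 0.462 in pericyte/smooth muscle-like and 0.654 in endothelial-like cells. For old PBS over young PBS, Slfn8 stood at 2.64 in pericyte/smooth muscle-like and 1.98 in endothelial-like cells and at 0.474 in MuSC/myoblast-like cells. For old rMETRNL over old PBS, Slfn8 stood at 1.80 in T/NK-like and 1.90 in MuSC/myoblast-like cells and at 0.376 in pericyte/smooth muscle-like and 0.589 in endothelial-like cells. The median depth of the endothelial-like cells was 11376, 3943 and 7239 UMIs in young PBS, old PBS and old rMETRNL. In the cluster of these cells with like depth in the libraries, led by Selp and Ackr1, Slfn5 stood at 1.10 and 0.856 in the same comparisons. Slfn8 stood there at 0.979 and 1.01. The clusters also differ in their leading genes, and the part of depth was not tested.

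Features of the Schlafen name that no comparison used held 11 UMIs (Slfn14), 35 UMIs (Slfn5os) and 10 UMIs (Slfnl1) in the 3 libraries together, above the 3 counts that a count of 0 allows.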

How the results depend on the processing

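No paired analysis was possible because each group held 1 library, and leaving out a library would leave a group empty. The 2 ratios of each of the 7 members in macrophage/monocyte-like cells were computed again under 9 alternatives (looser and stricter cell filters, doublet calls kept, Leiden resolutions 0.4 and 1.6, a mean of per-cell CPM, totals without mitochondrial and ribosomal protein genes, median-of-ratios scaling, and a gate on macrophage genes in place of clusters). All 126 values kept their side of 1, and 27 lay outside the counting interval of the reported ratio. For Slfn4 the ratio of old PBS to young PBS became 0.300 with the stricter filter and 0.332 with the gate, and the ratio of old rMETRNL to old PBS became 3.52 with the looser filter and 2.82 with the gate. With subset shares held fixed, which is not among the 9, the latter was 2.24, and 2.74 when sub-clusters were drawn at resolution 0.4. Fixed shares turned both Slfn2 ratios to the other side of 1, to 0.954 and 1.04 with the shares of old PBS and to 0.955 and 1.05 with the mean shares of the 3 libraries. Over the 9 alternatives the Slfn1 ratios ran from 0.266 to 0.311 and from 2.44 to 2.74, and those of Slfn9 from 0.641 to 0.676 and from 1.62 to 1.76. With the shares of old PBS fixed they were 0.476 and 1.89 for Slfn1 and 0.852 and 1.28 for Slfn9. With the mean shares of the 3 libraries they were 0.526 and 1.68 for Slfn1 and 0.883 and 1.29 for Slfn9. Those of Slfn4 were 0.436 and 2.09 with the mean shares. In endothelial-like cells the Slfn5 ratios of 1.66 and 0.654 were 1.92 and 0.610 in the larger and 1.10 and 0.856 in the smaller of its 2 clusters. By the mean level of the 3 libraries, T/NK-like cells came second for Slfn1 with the stricter filter and with median-of-ratios scaling, macrophage/monocyte-like cells came second for Slfn4 with the looser filter, and endothelial-like cells came second for Slfn9 with the stricter one. The cause of these changes was not tested. The share of cells with a Slfn4 UMI was 8.65%, 2.92% and 8.09% after thinning to 5000 UMIs. Depth limits Slfn3 outside endothelial-like and macrophage/monocyte-like cells, and Slfn4 outside the latter, where they rest on few UMIs.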
